A study of Rattus norvegicus with 5 samples.

Results

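Airway secretory and mucosal cell genes were followed through RNA sequencing of rat lung as a set of 8 genes chosen by symbol, namely Scgb1a1, Scgb3a1, Scgb3a2, Clca3, Itln1, Plunc, Gp2 and Dmbt1. All 8 were found among the 1800 distinct symbols listed in the authors' 9 tables of differentially expressed genes. The lungs came from 5 Sprague Dawley rats, with 1 library per group. The reference was a normoxic male that had not been screened for gasping. The other 4 rats had first been sorted by how long they took to gasp under hypobaric hypoxia and later put in a decompression chamber for 1 h, set to a height of 9144 m. The susceptible male came from the rats that gasped before 5 min, the normal male (also labelled moderate) from those at 15 to 20 min, the tolerant male from those beyond 45 min and the tolerant female from the group beyond 1 h. The exposure and the earlier screen cannot be told apart against the unscreened reference, and sex cannot be told apart from tolerance in the only female. The series addresses early transcript differences between rats that tolerate low pressure poorly or well. The labels used here give no ages and do not say whether animals were pooled. Each table compares a pair of libraries and lists a gene only when its fold was at least 2 and its FDR-corrected p below 0.05, so a gene without a row has no value there, and no difference below has a replicate check. The tables list changed genes only, so the tissue label could not be checked against lung markers.

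The conducting airways are lined by club, goblet and ciliated cells, and the secretory cells among them release the fluid, mucus and defence proteins that coat the surface. Secretoglobins are small secreted proteins of club cells. Scgb1a1 (uteroglobin) is the classic club cell marker, and Scgb3a1 and Scgb3a2 are made in airway epithelium too. Clca3 belongs to the CLCA family of secreted proteins; its mouse counterpart Gob-5 marks mucus-filled goblet cells, and RefSeq now names the rat gene Clca1. Itln1 encodes intelectin, a lectin that binds microbial sugars and is made by goblet cells and, in humans, by mesothelium. Plunc, now Bpifa1, encodes an antimicrobial, surface-active protein of the airway lining. Gp2 encodes a glycoprotein of secretory granule membranes that, in mouse and human gut, marks the M cells lying over lymphoid tissue. Dmbt1 encodes a scavenger-receptor-type mucosal glycoprotein that binds bacteria and surfactant protein D.

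The stretches just upstream of 5 of these genes are shown because the 3 secretoglobins were listed together on the higher side in the normal male, whereas Clca3 was on the lower side there and Gp2 had the largest fold. Each is the 250 bases before the RefSeq start on the rat assembly GRCr8, which is not the build of the authors' coordinates. Capitals mark any of 6 letter patterns: TATAAA on the given strand, and on both strands TGTTTAC and TGTTTGC (forkhead FOXA type), CTCAAG (NKX2-1 type), TTGCNNAA (C/EBP type) and ACGTG (core of the hypoxia response element).
Scgb1a1 (chr1:215409687-215409936, minus strand): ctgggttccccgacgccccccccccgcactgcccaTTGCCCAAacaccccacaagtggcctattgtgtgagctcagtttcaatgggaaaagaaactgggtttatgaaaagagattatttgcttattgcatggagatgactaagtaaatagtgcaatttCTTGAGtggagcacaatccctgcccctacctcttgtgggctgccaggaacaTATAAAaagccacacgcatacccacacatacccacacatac
Scgb3a1 (chr10:34468916-34469165, plus strand): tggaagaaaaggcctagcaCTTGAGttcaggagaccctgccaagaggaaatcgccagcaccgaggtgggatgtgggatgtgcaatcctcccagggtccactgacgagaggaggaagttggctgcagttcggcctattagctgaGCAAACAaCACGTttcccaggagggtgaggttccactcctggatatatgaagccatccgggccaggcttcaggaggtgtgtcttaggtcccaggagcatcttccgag
Scgb3a2 (chr18:36183495-36183744, plus strand): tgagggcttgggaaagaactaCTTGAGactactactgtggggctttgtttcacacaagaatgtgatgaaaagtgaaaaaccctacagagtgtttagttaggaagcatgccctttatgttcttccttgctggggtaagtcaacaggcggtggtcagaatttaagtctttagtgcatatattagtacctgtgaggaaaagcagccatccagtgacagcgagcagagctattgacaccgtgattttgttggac
Clca3 (chr2:236624715-236624964, minus strand): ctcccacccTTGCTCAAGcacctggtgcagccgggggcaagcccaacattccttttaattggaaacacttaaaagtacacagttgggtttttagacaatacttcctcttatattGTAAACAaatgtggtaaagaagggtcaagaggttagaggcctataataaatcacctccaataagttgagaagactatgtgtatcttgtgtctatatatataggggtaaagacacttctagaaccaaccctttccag
Gp2 (chr1:183243955-183244204, minus strand): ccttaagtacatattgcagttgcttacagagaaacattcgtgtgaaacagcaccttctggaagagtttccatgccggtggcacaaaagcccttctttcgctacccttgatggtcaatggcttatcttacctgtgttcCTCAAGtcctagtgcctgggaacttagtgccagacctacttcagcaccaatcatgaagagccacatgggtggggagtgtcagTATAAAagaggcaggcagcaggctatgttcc
RefSeq promoters were matched for 7 of the 8 genes, all but Dmbt1. The CTCAAG pattern was found in each of these 7, against 13.3% of all 33469 promoters of the same length. TATAAA was found in 4 of the 7 (Scgb1a1, Itln1, Plunc and Gp2), against 8.06% of all promoters. ACGTG was found in 3 (Scgb3a1, Itln1 and Plunc), against 16.6%, and TTGCNNAA in 2 (Scgb1a1 and Clca3), against 9.22%. TGTTTGC was found in Scgb3a1 alone (4.16% of all promoters) and TGTTTAC in Clca3 alone (3.21%). In Clca3 the TTGCNNAA and CTCAAG matches overlap. In Scgb3a1 the TGTTTGC match ends 101 bases and the ACGTG match starts 99 bases before the start. These are matches of letters, not shown binding sites.

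The 3 secretoglobins shared 1 feature across the libraries: each was highest in the normal male among the libraries that listed folds link. In the authors' deposited table of the normal male over the normoxic male, Scgb3a1 (chromosome 10, 35125523 to 35126983) was 3.34-fold higher. Scgb3a2 (chromosome 18, 37200376 to 37203481) was 2.25-fold higher, with an FDR-corrected p of 8.35e-09, in the authors' deposited table. Scgb1a1 (chromosome 1, 211758063 to 211761750) was 2.14-fold higher in the authors' deposited table, which lists the p of Scgb3a1 and Scgb1a1 as 0. Fold sizes were alike for Scgb1a1 and Scgb3a2 and larger for Scgb3a1, and coordinates are given on the authors' unnamed build throughout.

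The tolerant male lay below the normal male for all 3 secretoglobins. Relative to the normal male, the authors' deposited table gave Scgb1a1 as 2.03-fold lower, with the p listed as 0. Scgb3a2 was 2.07-fold lower (FDR-corrected p 2.52e-07) in the authors' deposited table. Scgb3a1 was 28.1-fold lower in the authors' deposited table, again with the p listed as 0. Taking the listed folds together, the levels of Scgb1a1 in the tolerant and normoxic males differed by a derived 1.05-fold and those of Scgb3a2 by 1.09-fold, whereas Scgb3a1 in the tolerant male was a derived 8.42-fold below normoxia. Within the family, Scgb3a1 thus spanned 28.1-fold over its 5 linked libraries, Scgb3a2 2.50-fold over 4 and Scgb1a1 2.14-fold over 3, as computed from the authors' deposited tables.

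Scgb3a1 was listed in 6 of the 9 authors' deposited tables, more than the other secretoglobins (3 for Scgb3a2, 2 for Scgb1a1), and stood on opposite sides in a pair of libraries. In the susceptible male it was 3.29-fold lower than in normoxia (FDR-corrected p 0.000131) in the authors' deposited table, while it was higher in the normal male. Directly compared, the normal male was 10.99-fold above the susceptible male in the authors' deposited table, with the p listed as 0. The tolerant female was 2.52-fold above the susceptible male (p 0.0417) and 4.37-fold below the normal male (p listed as 0) in the authors' deposited tables. In percent of the level in the normal male, Scgb3a1 stood at 30.0% in normoxia, 22.9% in the tolerant female, 9.10% in the susceptible male and 3.56% in the tolerant male. The step from normoxia to the tolerant female is a derived 1.31-fold and has no row in the authors' deposited table. Scgb3a2 was 2.50-fold higher in the normal than in the susceptible male (p 1.12e-10) in the authors' deposited table, which puts the susceptible male a derived 1.11-fold below normoxia.

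**Figure D1:**
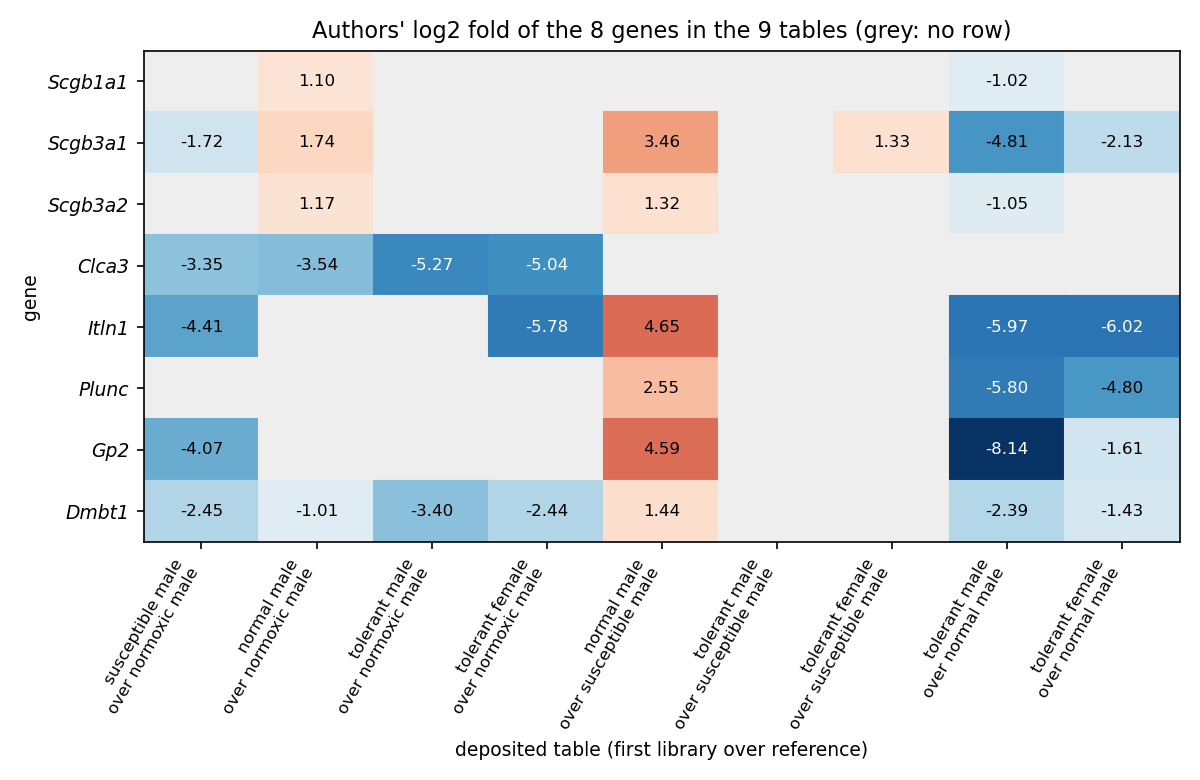
Authors' log2 fold (number and colour, red higher and blue lower) of the 8 genes (rows) in the 9 deposited tables (columns, first library over reference), with grey where a table has no row. Clca3 fills the 4 columns against normoxia alone, from -3.35 to -5.27, and the column of the tolerant male over the susceptible male is empty.

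Clca3, the goblet cell gene, was the member whose listed folds all lay against normoxia. It was lower in each of the 4 exposed libraries (chromosome 2, 243057135 to 243084146). The authors' deposited tables gave 10.2-fold for the susceptible and 11.6-fold for the normal male, and 38.7-fold and 32.8-fold for the tolerant male and female. The FDR-corrected p-values ran from 1.84e-08 to 1.22e-06 in the authors' deposited tables. All 4 folds share the 1 normoxic library. Among the exposed libraries the derived folds were smaller: the susceptible and normal males differed by 1.14-fold and the tolerant male and female by 1.18-fold, while the tolerant male was 3.80-fold and the tolerant female 3.23-fold below the susceptible male. Clca3 had no row in the 5 authors' deposited tables between exposed libraries.

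Itln1, the intelectin gene, fell into a high pair and a low trio of libraries. In the susceptible male it was 21.2-fold lower than in normoxia (chromosome 13, 87445119 to 87455226; p 7.75e-05) and in the tolerant female 55.0-fold lower (p 2.51e-05) in the authors' deposited tables. The normal male was 25.1-fold above the susceptible male (p 2.05e-06) in the authors' deposited table. Relative to the normal male, the tolerant male was 62.7-fold lower (p 8.55e-07) and the tolerant female 65.0-fold lower (p 1.11e-06) in the authors' deposited tables. The normoxic and normal males thus held 84.5% (derived) and 100% of the normal male's level, and the susceptible male, tolerant male and tolerant female 3.98%, 1.60% and 1.54%. The tolerant male and the tolerant female differed by a derived 1.04-fold. The tolerant male was a derived 52.9-fold below normoxia, through 3 links, but had no row for Itln1 in the authors' deposited table of that comparison.

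Plunc was listed for comparisons with the normal male alone. It was 5.85-fold higher in the normal than in the susceptible male (chromosome 3, 144529855 to 144535598; p 0.0234) in the authors' deposited table. The tolerant male was 55.6-fold (p 0.00124) and the tolerant female 27.9-fold (p 0.00236) below the normal male in the authors' deposited tables. Plunc therefore stood at 17.1%, 1.80% and 3.58% of the normal male in the susceptible male, the tolerant male and the tolerant female. No listed fold links Plunc to the normoxic library, so its level there is not given.

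Gp2 had the largest fold of the 8 genes. It was 281-fold lower in the tolerant than in the normal male (chromosome 1, 177709924 to 177725490; p 7.89e-10) in the authors' deposited table. The tolerant female was 3.05-fold below the normal male (p 0.00325) in the authors' deposited table. The susceptible male was 16.8-fold below normoxia (p 2.45e-05), and the normal male 24.1-fold above the susceptible male (p 7.39e-09), in the authors' deposited tables. In percent of the normal male, Gp2 stood at 69.7% in normoxia (derived), 32.8% in the tolerant female, 4.15% in the susceptible male and 0.356% in the tolerant male. The tolerant animals were thus a derived 92.2-fold apart in Gp2, with the female higher, and a derived 1.04-fold apart in Itln1. No table compares them, and no p belongs to this value. The derived folds of Gp2 in the tolerant male against normoxia (196-fold lower) and in the tolerant female against the susceptible male (7.91-fold higher) also had no row in the authors' deposited tables of those comparisons.

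Dmbt1 was listed most often, in 7 of the 9 tables, and was lower in all 4 exposed libraries than in normoxia. In the authors' deposited tables the susceptible male was lower by a fold of 5.46 (p 8.27e-09), the normal male by 2.01 (p 0.00888), the tolerant male by 10.6 (p 7.27e-12) and the tolerant female by 5.41 (p 9.55e-09) (chromosome 1, 190378428 to 190470536). The normal male, with the smallest fold against normoxia, was 2.71-fold above the susceptible male (p 0.0206) in the authors' deposited table. The tolerant male was 5.25-fold (p 0.00022) and the tolerant female 2.69-fold (p 0.0308) below the normal male in the authors' deposited tables. The susceptible male and the tolerant female differed by a derived 1.01-fold, and the tolerant male was a derived 1.94-fold below the susceptible male. RefSeq names a further gene Dmbt1l1, and the sources used here do not say how reads were shared between similar genes.

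**Figure D2:**
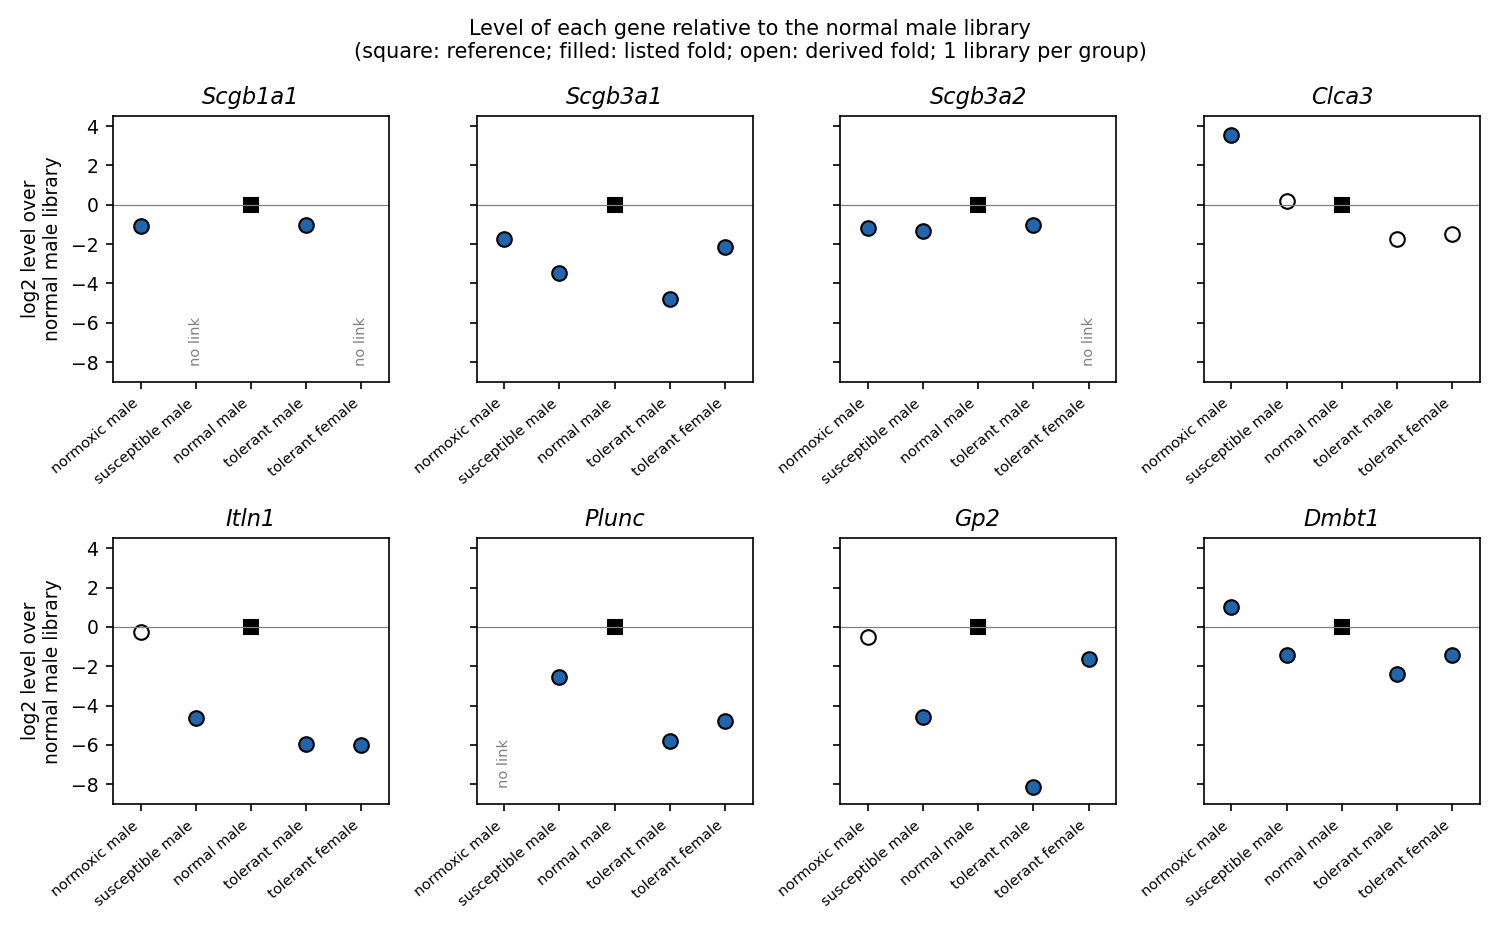
Log2 level of each gene (panels) in the 5 libraries (horizontal axis) relative to the normal male library (black square at 0), 1 library per group. Filled circles are folds listed by the authors and open circles are derived by chaining listed folds. The tolerant male lies lowest for Scgb3a1, Clca3, Plunc, Gp2 and Dmbt1, down to -8.14 for Gp2.

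Read by library, the normal male held the highest linked level of 6 of the 8 genes and the normoxic male that of the other 2, Clca3 and Dmbt1. The lead of the normal male over normoxia was a derived 1.18-fold for Itln1 and 1.43-fold for Gp2, and Plunc had no link to normoxia. The same ranking was not made for all symbols. The tolerant male held the lowest linked level of 5 genes, and the normoxic male, the susceptible male and the tolerant female the lowest of 1 each (Scgb1a1, Scgb3a2 and Itln1). The lowest and next levels of Scgb1a1, Scgb3a2 and Itln1 lay within a derived 1.11-fold of each other, so these orders rest on small steps. Among the 5 genes lowest in the tolerant male, Clca3 was there a derived 1.18-fold below the tolerant female, also a small step. Plunc was ranked without a level in normoxia. Whether a library had fewer secretory cells or less RNA per cell cannot be told apart in whole lung.

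Against normoxia, the authors' deposited table of the susceptible male held 5 of the 8 genes, all lower, where 8.56% of all 1800 symbols were listed as lower. That of the normal male held 3 as higher and 2 as lower, where 23.3% and 25.0% of symbols were. In the authors' deposited table of the tolerant male, 2 genes were listed, both lower (7.72% of symbols), and in that of the tolerant female 3, all lower (6.39%). Between exposed libraries, 6 genes were higher in the normal than in the susceptible male (35.1% of symbols) in the authors' deposited table. Relative to the normal male, the authors' deposited tables gave 7 genes as lower in the tolerant male (26.4% of symbols) and 5 in the tolerant female (21.2%). Over the susceptible male, 1 gene was higher in the tolerant female (6.28% of symbols), and none was listed for the tolerant male, whose authors' deposited table held 7.44% of symbols. The share is taken over symbols listed anywhere, since the sources used here do not give the number of genes tested. Tables of 1 library share its animal, so these counts are not separate from each other.

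A missing row did not mean a small fold. Over all symbols, 22 had a fold of at least 8 between the tolerant and normoxic males when derived through 1 other library, and the authors' deposited table of that comparison listed 11 of them. The gap was smaller in pairs with the normal male. There the count was 58 of 61 over the susceptible male and 10 of 12 over normoxia. It was 27 of 33 for the tolerant male and 3 of 3 for the tolerant female over the normal male. Over normoxia it was 22 of 46 for the susceptible male and 3 of 9 for the tolerant female. Over the susceptible male it was 40 of 69 for the tolerant female and 2 of 18 for the tolerant male. Derived values for the tolerant over the susceptible male were 3.80-fold lower for Clca3, 9.51-fold lower for Plunc, 11.7-fold lower for Gp2, 2.56-fold lower for Scgb3a1 and 2.50-fold lower for Itln1, although none of the 8 genes had a row there. Scgb3a2 was a derived 1.21-fold higher in that pair.

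The genes nearest to a member in log2 fold, among named symbols listed in every table that held the member, were sought for the 5 members with 4 or more tables. For Gp2, over 4 tables and 24 candidates, they were Igh-1a and Igj, an immunoglobulin heavy chain gene and the joining chain gene of plasma cells, and Itln1, with mean absolute differences of 0.97, 1.65 and 1.74 on the log2 scale. Igh-1a was 10.7-fold lower in the susceptible male than in normoxia, 50.6-fold higher in the normal than in the susceptible male, and 67.0-fold and 2.85-fold lower in the tolerant male and the tolerant female than in the normal male, in the authors' deposited tables. Igj followed at 6.65-fold lower, 29.6-fold higher, 10.8-fold lower and 2.57-fold lower across these same comparisons by the authors' deposited tables, through its larger row where there were 2. Like Gp2 and unlike Itln1, both immunoglobulin genes were closer to the normal male in the tolerant female than in the tolerant male. Both were picked for nearness to Gp2 over these same tables, so a likeness was built in. Immunoglobulin genes have near-identical copies, so these values are uncertain.

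For Itln1, over 5 tables and 11 candidates, the nearest were Cr2, the complement receptor of B and follicular dendritic cells (mean difference 2.30), Dmbt1 (3.34) and Pou2af1, a B cell transcriptional coactivator (3.62). Against normoxia, Cr2 was 18.2-fold lower in the susceptible male and 7.08-fold lower in the tolerant female, and 14.0-fold higher in the normal than in the susceptible male, in the authors' deposited tables. Relative to the normal male, Cr2 was 4.24-fold lower in the tolerant male and 5.43-fold lower in the tolerant female. Itln1 was 62.7-fold and 65.0-fold lower there, in the authors' deposited tables. The part of B cell genes in the values of Gp2 and Itln1 was not tested. For Clca3, over the 4 tables against normoxia and 46 candidates, the nearest were the heart muscle genes Myh7 (0.97), Tnnc1 (1.06) and Srl (1.16), which were lower in all 4 exposed libraries in the authors' deposited tables. In the tolerant female Clca3 was 32.8-fold lower, while Myh7 was 10.5-fold, Srl 6.07-fold and Tnnc1 4.59-fold lower, in the authors' deposited tables. For Scgb3a1 the single candidate, Adarb1, which encodes an RNA-editing enzyme, had the opposite sign in all 6 tables (mean difference 4.34). For Dmbt1 the 2 candidates, Edn1 and Apold1, had mean differences of 4.04 and 5.09. Apold1 had the opposite sign to Dmbt1 in every shared comparison, and Edn1 in all but the normal male over normoxia.

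**Figure D3:**
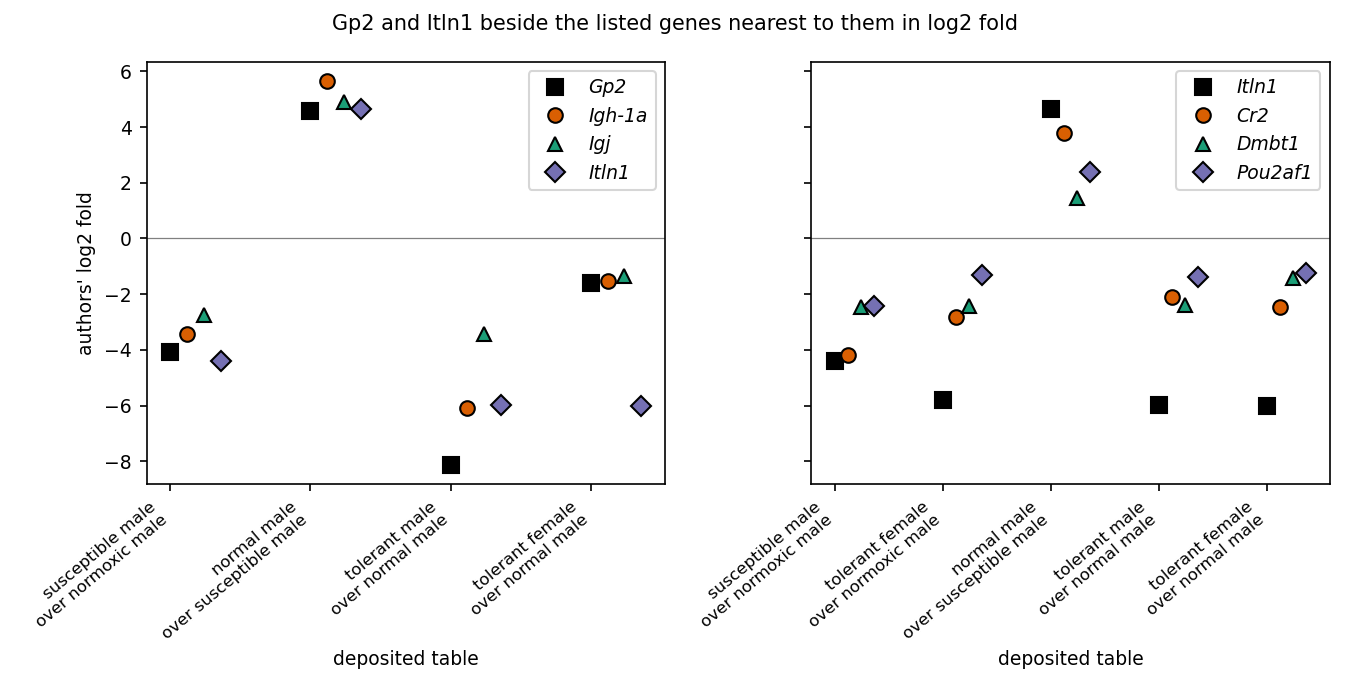
Authors' log2 fold (vertical axis) in each deposited table that lists Gp2 (left) or Itln1 (right), shown as black squares, beside the 3 listed genes nearest to each (coloured symbols). Igh-1a lies closest to Gp2, with a mean absolute difference of 0.97, whereas for Itln1 the nearest gene, Cr2, differs by 2.30.

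Other genes of the airway surface gave few rows. Of 93 further symbols on 3 lists of club and secretory, goblet and mucin, and mucosal defence and M cell genes, 14 were listed in any table. The normal male over normoxia held 7 of them, all of them higher, where 23.3% of all 1800 symbols were higher and 25.0% lower. Their median log2 fold was 1.75 against -1.03 for all listed symbols, in the authors' deposited table. The value of -1.03 lies near the fold threshold, since the listed symbols were split into 419 higher and 450 lower. Among the 7 were Retnla, a resistin-like secreted protein (6.02-fold), the anion exchanger Slc26a4 (5.47-fold), Slpi, a secreted protease inhibitor (4.09-fold), and the haemoglobin-binding protein haptoglobin, Hp (3.36-fold), in the authors' deposited table. Duox1, an epithelial source of hydrogen peroxide, was 2.71-fold and the chitinase Chia 2.08-fold higher in the authors' deposited table.

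Comparisons with the normal male as reference share its library with the one above. Against normoxia the tolerant male listed 1 of the 93 symbols, Lcn2, which was higher. Relative to the normal male, the tolerant male had 7 of the 14 listed, 6 lower and 1 higher, where 26.4% and 15.3% of all symbols were. Their median log2 fold was -1.47 against -1.32 for all listed symbols, in the authors' deposited table. Retnla was 8.44-fold, Duox1 6.14-fold, Slpi 4.14-fold, Hp 2.77-fold, Wfdc2 2.50-fold and Chia 2.21-fold lower, and the membrane mucin Muc16 3.22-fold higher, in the authors' deposited table. In the tolerant female over the normal male, 7 were listed, 6 lower and 1 higher, where 21.2% and 11.6% of all symbols were. Their median log2 fold was -1.65 against -1.30 for all listed symbols. Lcn2 was 34.4-fold, Retnla 5.06-fold, Slpi 3.32-fold, Hp 3.14-fold, Chia 2.13-fold and Chi3l1 2.09-fold lower, and Cyp2b1 2.20-fold higher, in the authors' deposited table. In both comparisons their median was thus close to that of the whole table.

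The normal male over the susceptible male gave the same side for most of these genes. That authors' deposited table held 6 of the 14 symbols listed anywhere, 5 higher and 1 lower, where 35.1% and 22.4% of all symbols were. Their median log2 fold was 2.66 against 1.22 for all listed symbols. Gabrp, a GABA receptor subunit (10.6-fold), Slpi (8.85-fold), Retnla (7.33-fold), Slc26a4 (5.48-fold) and Duox1 (2.75-fold) were higher, and the monooxygenase Fmo2 was 2.84-fold lower. Fmo2 was also 2.49-fold lower in the tolerant than in the susceptible male in the authors' deposited table. Lcn2, which neutrophils make too, was 34.8-fold higher in the susceptible male and 35.4-fold higher in the tolerant male than in normoxia, and the tolerant female was 18.3-fold below the susceptible male, in the authors' deposited tables. Neither Muc5ac nor Muc5b, the gel-forming airway mucins, had a row in any of the 9 tables.

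**Figure D4:**
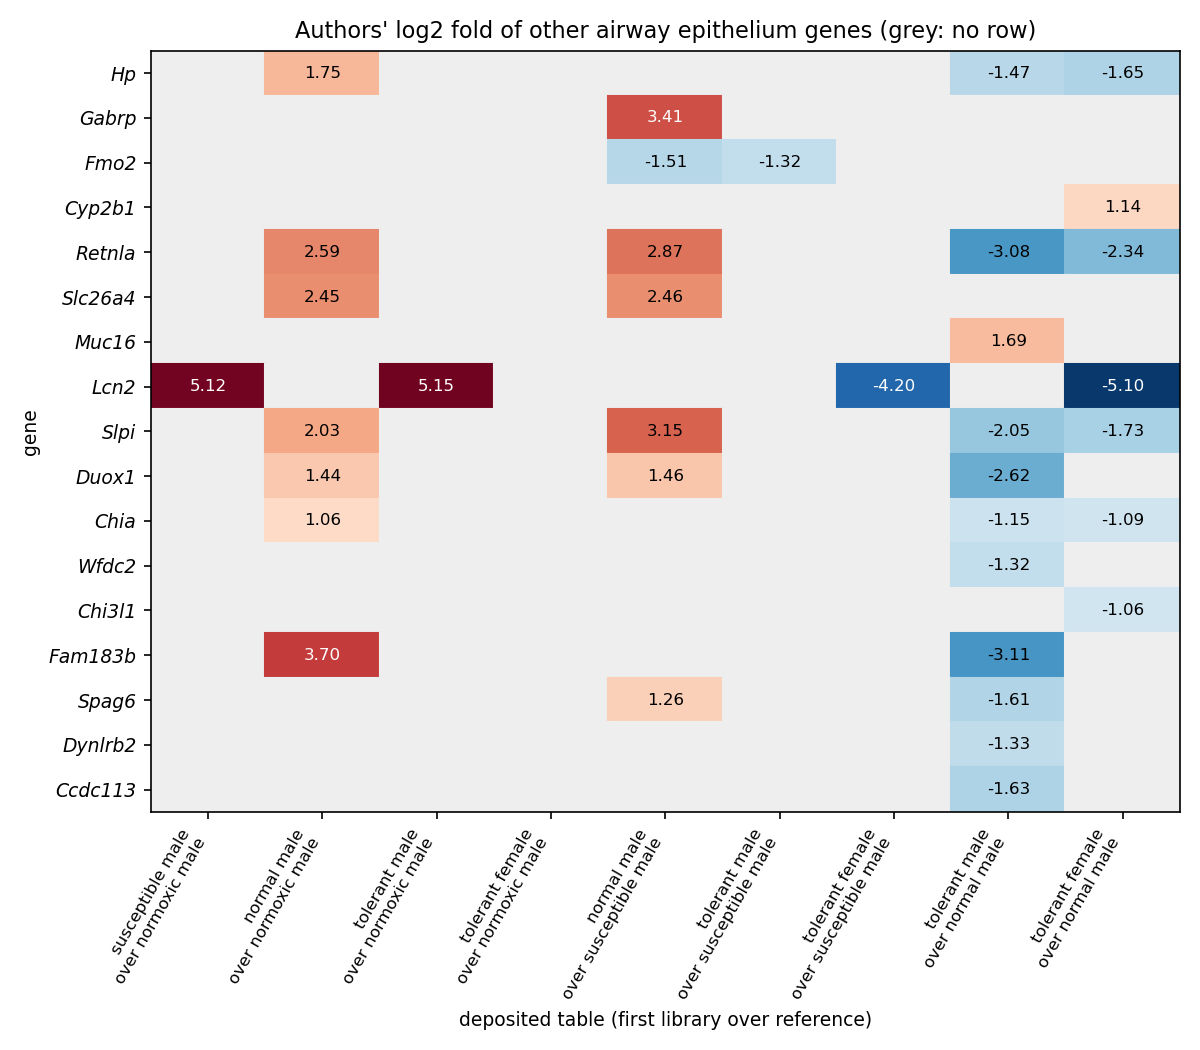
Authors' log2 fold (number and colour) of the reported genes of the club, goblet, mucosal defence and ciliated lists other than the 8 members (rows) in the 9 deposited tables (columns), with grey where a table has no row. Rows are filled mainly in the columns that contain the normal male, such as Slpi from -2.05 to 3.15. Those columns list 590 to 1036 symbols of any kind, and the columns without the normal male 134 to 262.

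Markers of neighbouring cell types were listed in some of the same comparisons. Of 34 ciliated cell symbols 4 were listed in any table. All 4 had a row for the tolerant over the normal male, all lower, where 26.4% of the 1800 symbols listed in any table were lower. They were Fam183b (8.65-fold), Ccdc113 (3.10-fold), Spag6 (3.05-fold) and Dynlrb2 (2.51-fold) in the authors' deposited table. Fam183b was 13.0-fold higher in the normal male than in normoxia and Spag6 2.40-fold higher than in the susceptible male in the authors' deposited tables. RefSeq places Spag6 on another chromosome (17) than the authors' deposited tables do (11). Of the 15 mesothelial symbols other than Itln1, 5 were listed in any table. The tolerant over the normal male held 4 of these 5, all higher, where 15.3% of all 1800 symbols were higher. They were Upk1b (3.97-fold), Lrrn4 (3.74-fold), Muc16 (3.22-fold) and Aldh1a2 (2.87-fold) in the authors' deposited table. Itln1, also on that list, was lower there. In other comparisons Gpm6a was 2.46-fold higher in the tolerant male than in normoxia. Upk1b was 2.69-fold lower in the normal than in the susceptible male, in the authors' deposited tables. The part of ciliated and mesothelial cells in the members' values was not tested.

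Among 33 regulators of secretory cells, the notch target Hes1 was 2.52-fold and the transcription factor Cebpb 3.28-fold higher in the susceptible male than in normoxia, with the receptor subunit Il4ra 2.91-fold higher, in the authors' deposited table. Il4ra was also 2.12-fold higher in the tolerant female than in normoxia, in the authors' deposited table. Of the 6 listed for the normal over the susceptible male, 5 were lower and 1 higher, where 22.4% and 35.1% of all symbols were. The forkhead factor Foxa2 (2.94-fold), Klf5 (2.92-fold), Klf4 (2.44-fold), Cebpb (2.22-fold) and Hes1 (3.62-fold) were lower in the authors' deposited table. These drops were not all particular to the normal male. Against the susceptible male, the tolerant male also had less Cebpb (2.97-fold) and Hes1 (3.24-fold), in the authors' deposited table. The tolerant female had 2.47-fold less Hes1 against that reference, in the authors' deposited table. Elf3, an epithelial transcription factor, was 2.25-fold higher for the normal over the susceptible male, in the authors' deposited table. Elf3 was also 2.41-fold higher in the normal male than in normoxia and 3.23-fold lower in the tolerant than in the normal male, in the authors' deposited tables. Nkx2-1, a regulator of secretoglobin genes, had no row in any table. Alveolar markers were few: Scd1 of type 2 cells was 2.22- to 3.35-fold higher in 6 authors' deposited tables. From the same list, the tolerant female was 2.09-fold below the normal male in Chi3l1 and 2.05-fold above it in Etv5, in the authors' deposited table. Akap5 of type 1 cells was 2.81-fold lower in the normal male than in normoxia, and 2.27-fold and 2.23-fold higher in the tolerant male and the tolerant female than in the normal male, in the authors' deposited tables. In the normal over the susceptible male, Akap5 was 3.60-fold and Igfbp2, also on the type 1 list, 2.90-fold lower, in the authors' deposited table. From the basal and squamous list Dsg3 alone was listed, in 3 authors' deposited tables and always higher in the tolerant male. Over normoxia the authors' deposited table gives it a fold of 336 (p 0.00991), and over the susceptible and normal males it gives no finite fold, as where the reference library is at 0, so the size of 336 is not to be read closely.

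Gene length differed between the higher and lower genes of most tables, with and without the normal male. Among named genes, those higher in the normal than in the susceptible male had a median locus span of 12059 bp and those lower 28002 bp, a ratio of 0.431, in the authors' deposited table. For the normal male over normoxia the ratio was 0.583. For the tolerant male over the normal male it was 3.49, and for the tolerant female over the normal male 2.94. In the tables without the normal male the ratio over normoxia was 0.700 (susceptible male), 1.43 (tolerant male) and 1.09 (tolerant female), and over the susceptible male 1.87 (tolerant male) and 0.646 (tolerant female). The secretoglobin loci span 1461 to 3688 bp, Plunc 5744 bp, Itln1 10108 bp and Gp2 15567 bp, and the part of length in their values was not tested. Dmbt1, at 92109 bp, was higher in the normal than in the susceptible male as well, by 2.71-fold in the authors' deposited table, and Clca3 (27012 bp) had no row there.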

How the data were processed

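RNA from 5 rat lungs (1 library per group) was extracted with TriReagent, made into TruSeq libraries and, per the labels, sequenced on a Genome Analyzer IIx. The 11 deposited tables include 2 byte-identical copies, which were not used. The fold is a signed score, a ratio of proportions by the authors, per the file headers: positive is the first library over the reference, negative is minus the inverse. The authors corrected each p-value for FDR, per the file headers, and a 0 stands below the stored precision. The test, aligner, counting and build: not given in the sources used here. No table holds counts, so depth is unknown and no interval could be given.

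Symbols were matched without bracketed records and ignoring case, and each was counted once per table, by its largest absolute fold. Every member had 1 row per table. Folds were put on the log2 scale, and folds between libraries that a table does not list for a gene were derived as sums of log2 folds along the shortest chain of listed folds (Python 3.11.15; tested on simulated data). They carry no p-value. Symbols were checked against RefSeq GRCr8, for names and chromosomes only, where all 8 members matched, and chromosome numbers of the authors' records were read from the same match. Promoters are from RefSeq GRCr8. Named genes were all members, every listed gene of the 3 secretory lists (1 of them is not reported here but stays in the counts), up to 3 per table of 6 other lists, and up to 3 nearest genes per member; where a list had few listed genes, the rest were named too, after their values were seen. The members, lists and rules were chosen with earlier results of these data known. Alternatives were a stricter p (0.01), a stricter fold (4), every row, other symbols and other chains. Figures used matplotlib 3.10.9.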

Additional observations from a re-analysis of the deposited data

Results flagged for a closer look

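Scgb3a1 stood on opposite sides of the normoxic library in a pair of exposed males: the authors' deposited tables give a signed fold of -3.29 in the susceptible male and 3.34 in the normal male. With 1 library per group the difference was not tested across animals. Their direct comparison in the authors' deposited table was 10.99-fold. Such a pair needs rows in more than 1 table against normoxia. Of the other members only Clca3, Itln1 and Dmbt1 had them, always lower. Of the other listed genes of the 3 secretory lists only Lcn2 did, always higher. The remaining genes could not show such a pair.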

How the results depend on the processing

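No paired analysis was possible because each group is 1 library, and for the same reason no replicate could be left out. Of 36 alternative counts of members per table, 32 stayed within 1.5 times the reported count. At a fold of at least 4, the authors' deposited table of the normal male over normoxia kept 1 of 5 members, that of the tolerant female over the normal male 3 of 5, and that of the tolerant female over the susceptible male 0 of 1, as it also did (0) with FDR-corrected p limited to 0.01. Of 18 alternative counts for the other secretory genes, 13 stayed within that limit. The exceptions were 3 of 6 for the normal over the susceptible male at a p of at most 0.01, and, at a fold of at least 4, 3 of 7 for the normal male over normoxia, 0 of 1 for the tolerant over the susceptible male, 3 of 7 for the tolerant over the normal male and 2 of 7 for the tolerant female over the normal male. Fewer rows pass a stricter threshold by construction. Choosing another row changed none of 34 member folds, and 64 of 64 other chains gave the same derived fold within 0.001 on the log2 scale, which checks the arithmetic and not the biology. Without depth, the precision of folds above 50 cannot be judged.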
